A study of Rattus norvegicus with 10 samples.

Results

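The genes described here are 9 transcription factors that act at the output of the circadian clock or beside its core loop, namely *Dbp*, *Tef*, *Hlf*, *Nfil3*, *Bhlhe40*, *Bhlhe41*, *Rora*, *Rorb* and *Ciart*. They were chosen by name, and all 9 had 1 row each in the deposited table of 12828 genes. The RNA came from tissue macrodissected free hand as the arcuate nucleus (ARC), a nutrient-sensing nucleus at the base of the hypothalamus. It was taken from 10 Wistar rat dams killed upon parturition. Of these dams, 5 had been fed 5X-FA, a purified AIN-93G diet with folic acid at 5 times the recommended level. The other 5 had been fed 5X-MTHF, the same diet with an equimolar amount of the methylated folate [6*S*]-5-methyltetrahydrofolic acid. The dams were in a first pregnancy, were bought when already some days pregnant, and received these diets from then until term. All 10 dams thus received a high folate diet, and the RNA samples do not include a group at the recommended level. The methods call the light cycle reversed but put lights on in the morning, so the light phase at death is not clear from them. Per the methods, the dams were killed after a fast during the daytime. Their ages and the hour at which each was killed are not given in the sources used here.

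In the molecular clock, the CLOCK and BMAL1 proteins bind E-boxes and switch on the *Per* and *Cry* genes, whose products then block them. Other factors carry time of day to the rest of the cell. The PAR bZIP factors DBP, TEF and HLF activate genes through D-boxes, and NFIL3, whose gene is itself a target of the ROR and REV-ERB receptors, represses through the same sites. BHLHE40 and BHLHE41 (DEC1 and DEC2) and CIART (CHRONO) repress CLOCK and BMAL1, while the nuclear receptors RORA and RORB activate *Bmal1* through sites that they share with the REV-ERB repressors. Transcript levels of many of these genes follow the time of day.

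The question of the study, whether the form of folate changed ARC gene expression, was not put to these genes here. The authors' deposited comparison of the diets, which has values for each gene, was not used. The table holds 10 columns with 1 value per sample for each gene, but they are headed with bare numbers that match no sample label, so that none could be assigned to a dam or a diet. These columns were left out altogether, and no difference between 5X-FA and 5X-MTHF dams, no spread between samples and no depth per library is given for any of the 9 genes. The values used for each gene are its position and the authors' average log2 CPM over all libraries (counts scaled to library size). This share of reads is not divided by transcript length.

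The E-box, in its perfect form CACGTG, was looked for in the promoters of these genes because it is the site of the core clock proteins. RefSeq promoter windows of the rat genome build GRCr8, which run from 250 bases before to 50 bases after a transcript start, were at hand for 8 of the 9 genes, 1 window each, *Hlf* being the other. Within the 250 bases before the start, 4 of the 8 held at least 1 E-box, namely *Ciart*, *Tef*, *Bhlhe40* and *Bhlhe41*. The stretches that hold them are shown 5′ to 3′ on the strand of the gene, with the E-box letters in capitals.

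Ciart: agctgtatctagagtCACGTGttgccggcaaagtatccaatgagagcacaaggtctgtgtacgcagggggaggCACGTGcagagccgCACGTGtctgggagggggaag
Tef: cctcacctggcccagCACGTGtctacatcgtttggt
Bhlhe40: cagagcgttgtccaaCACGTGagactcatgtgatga
Bhlhe41: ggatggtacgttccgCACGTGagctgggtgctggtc

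In GRCr8 these stretches lie at chr2:186112247-186112354 on the minus strand (*Ciart*), chr7:115206614-115206649 on the plus strand (*Tef*), chr4:143174215-143174250 on the plus strand (*Bhlhe40*) and chr4:180569383-180569418 on the minus strand (*Bhlhe41*). The *Ciart* promoter held 3 E-boxes, whose first bases lay 93, 35 and 21 bases before the transcript start. The single E-box of *Bhlhe41* began 48 bases before the start, whereas those of *Tef* and *Bhlhe40* were farther away, at 198 and 220 bases.

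**Figure D1:**
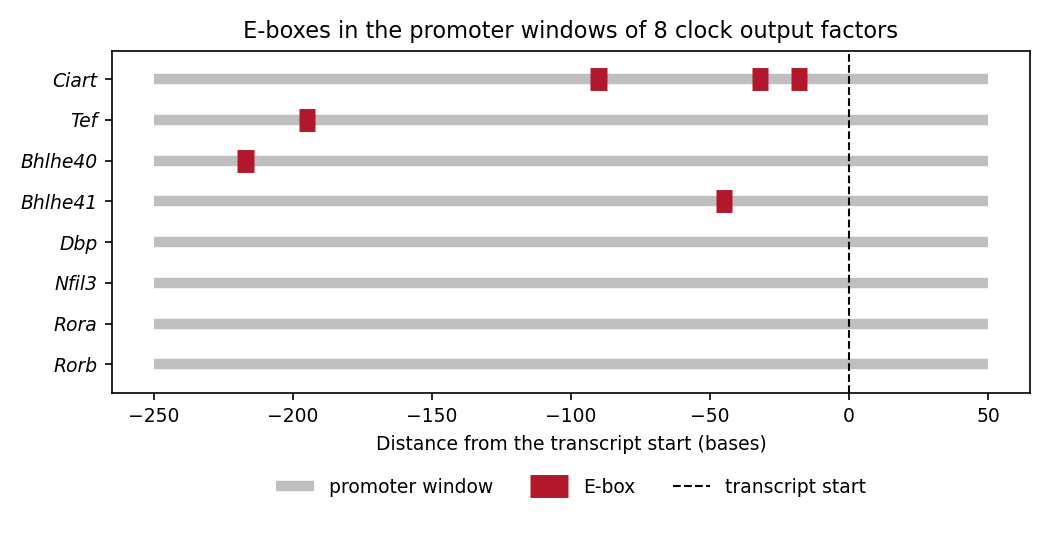
Positions of E-boxes in the promoter windows of 8 clock output factors. The horizontal axis is the distance from the transcript start in bases, each grey bar is the 300-base window of 1 gene and each red block is 1 E-box. *Ciart* has 3 blocks, the closest 21 bases before the start, *Tef*, *Bhlhe40* and *Bhlhe41* have 1 each, and the other 4 windows have none.

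For comparison, 5.59% of all 33469 promoter windows held an E-box in the same 250 bases, as did 8.12% of the 10936 windows of genes with a row in the deposited table. At least 3 E-boxes were found in 17 of all windows (0.051%), of which the *Ciart* window is 1. The count of 4 among the 8 windows of the genes described here was not tested against these shares, and it rests on few windows. The promoters also differ in base composition. The GC content of the 250 bases had a median of 51.2% over all windows and of 60.4% over windows of genes with a row. Among the 4 genes with an E-box it was 58.0% for *Ciart*, 65.6% for *Tef*, 66.0% for *Bhlhe40* and 75.2% for *Bhlhe41*. Among those without, it was 46.4% for *Nfil3*, 61.2% for *Dbp*, 64.0% for *Rorb* and 74.4% for *Rora*, so that the GC values of the windows with and without an E-box overlapped. These matches are letters in a window of another genome build than the one used for counting, and no binding was measured.

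Exact matches to the motifs searched for the PAR bZIP and ROR families were not found in these windows. Variant forms of these sites were not searched. The D-box, searched on both strands as TTATGTAA and as TTACGTAA, was in 0 of the 8 windows, and in 0.828% and 0.108% of all windows, respectively. Over windows of genes with a row, these shares were 0.439% and 0.146%. The core of the ROR and REV-ERB site, AGGTCA on either strand, was also in 0 of the 8. It was in 14.1% of all windows and in 10.3% of windows of genes with a row, and 8 windows are too few to set against such shares. No E-box therefore overlapped another of the motifs searched. A window of this size leaves out enhancers and sites within the gene.

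Of 27 other clock genes on a hand-written list, 21 had promoter windows. An E-box was found in 2 of them, *Nr1d1*, which encodes REV-ERBα, and *Gsk3b*, a kinase of clock proteins. The D-box TTATGTAA was found in *Per2* only, 192 bases before the start. The ROR core AGGTCA was found in 3, the BMAL1 gene *Arntl* (15 bases before the start), the REV-ERBβ gene *Nr1d2* (187 bases) and the deubiquitinase gene *Usp2* (70 bases). As shares of the 21 genes these are 9.52% for the E-box, 4.76% for this D-box and 14.3% for the ROR core. The shares of all windows were 5.59%, 0.828% and 14.1%, respectively. Over windows of genes with a row they were 8.12%, 0.439% and 10.3%. The shares of the 21 genes count a gene if any of its windows held the motif, whereas the other shares count windows.

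Expression of the 3 PAR bZIP genes in the tissue dissected as the ARC spanned a wide range of read shares. *Tef* (ENSRNOG00000019383, chromosome 7 from 123043503 to 123058604 in Rnor_6.0) had an authors' average log2 CPM of 7.97, which is 251 CPM on the linear scale, and 623 of the 12828 genes had a higher value. *Dbp* (ENSRNOG00000021027, chromosome 1 from 101687855 to 101692846), the founding member of the family, had an average of 6.52, or 91.7 CPM on the linear scale, with 2482 genes above it. *Hlf* (ENSRNOG00000002456, chromosome 10 from 77840568 to 77918191) had an average of 4.09, or 17.1 CPM on the linear scale, with 8605 genes above it. *Tef* and *Dbp* thus lay above the median of all genes (4.94) and *Hlf* below it. Since longer transcripts yield more reads and no transcript lengths were used, these values do not order the genes by number of transcripts.

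*Nfil3* (ENSRNOG00000011668, chromosome 17 from 12261102 to 12276315), the repressor at D-boxes, had an authors' average log2 CPM of 2.90. This corresponds to 7.47 CPM on the linear scale, and 10920 genes had a higher value.

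Both DEC genes, the repressors that bind E-boxes themselves, lay above the median of all genes. *Bhlhe40* (ENSRNOG00000007152, chromosome 4 from 140703619 to 140709319), which is also induced by neuronal activity, had an authors' average log2 CPM of 5.53, or 46.2 CPM on the linear scale. *Bhlhe41* (ENSRNOG00000048961, chromosome 4 from 180232382 to 180234804) had 5.32, or 40.1 CPM on the linear scale. There were 4826 and 5392 genes with higher values, respectively. Whether they differ was not tested.

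The nuclear receptor genes and *Ciart* were in the lower part of the table. *Rorb* (ENSRNOG00000013413, chromosome 1 from 234252757 to 234435839), known for its expression in sensory pathways, thalamus and the central clock, had an authors' average log2 CPM of 3.93, or 15.3 CPM on the linear scale. *Rora* (ENSRNOG00000027145, chromosome 8 from 75516904 to 75607212) had the lowest value of the 9, 2.34 or 5.05 CPM on the linear scale, and only 9.25% of all genes were lower. *Ciart* (ENSRNOG00000042717, chromosome 2 from 197987705 to 197991574), which carried 3 E-boxes, had 2.53 or 5.76 CPM on the linear scale. In all, 4 of the 9 genes lay above the median of the table and 5 below it.

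**Figure D2:**
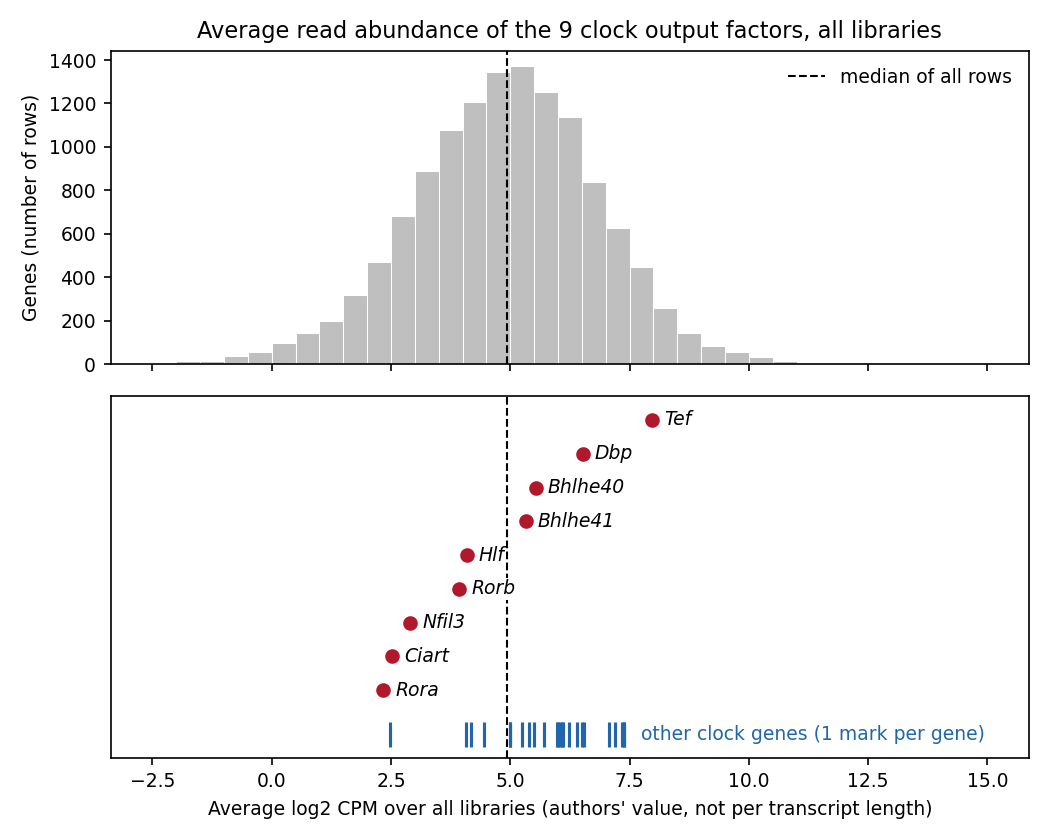
Average read abundance of the 9 genes in the tissue dissected as the ARC. The upper panel is a histogram of the authors' average log2 CPM of all 12828 genes, and the lower panel gives the 9 clock output factors as red points and 24 other clock genes as blue marks on the same horizontal axis. The dashed line is the median of all genes, 4.94; *Tef*, *Dbp*, *Bhlhe40* and *Bhlhe41* lie to its right and the other 5 genes to its left.

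In the files' Rnor_6.0 coordinates, 0 of the 9 genes overlapped another gene with a row. The gene bodies spanned 2.4 kb (*Bhlhe41*) to 183.1 kb (*Rorb*). *Dbp* had the closest neighbour, since 126 bases separate it from *Sphk2*, a sphingosine kinase gene with an authors' average log2 CPM of 5.01, and 561 bases from *Ca11*. The next closest was *Ciart*, 5319 bases from *Mrps21*. For the other 7 genes the nearest gene with a row was at least 16352 bases away, the value at *Tef*.

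Of the 27 other clock genes, 24 had a row, and 20 of these lay above the median of all genes. Their authors' average log2 CPM had a median of 6.02. The highest values were those of *Csnk1d*, *Fbxw11* and *Btrc*, at 7.39, 7.39 and 7.34, which encode a casein kinase and F-box proteins that mark PER proteins for decay. *Tipin*, a partner of TIMELESS, had the lowest, 2.48. Among 18 immediate early genes, which neuronal activity induces as it does *Bhlhe40*, 15 had a row, with values from 2.12 (*Fosl2*) to 6.61 (*Jund*) and a median of 3.82.

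Markers of the dissected nucleus were listed together with markers of other brain regions. Of 12 ARC marker genes, 11 had a row, with an authors' average log2 CPM from 0.08 (*Kiss1*) to 6.35 (*Sst*). All 8 striatal markers had a row, from 4.26 (*Adora2a*) to 7.68 (*Penk*), as did all 5 thalamic markers, from 3.19 (*Lef1*) to 8.09 (*Slc17a6*, which many hypothalamic neurons also express). Of 7 markers of cortex and hippocampus, 5 had a row, from 2.40 (*Neurod6*) to 7.17 (*Slc17a7*). Of 8 markers of the suprachiasmatic nucleus, the central clock, 6 had a row, from -0.68 (*Prok2*) to 7.96 (*Avp*, which other hypothalamic nuclei also express). Markers above the median of all genes numbered 3 of 11 for the ARC, 6 of 8 for striatum, 3 of 5 for thalamus, 1 of 5 for cortex and hippocampus and 1 of 6 for the suprachiasmatic nucleus. How far the markers on each list, *Penk* among them, are particular to their region was not tested. What part other regions had in the averages of the 9 genes was not tested either. Fewer cells expressing a gene and less RNA per cell cannot be told apart in such samples.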

How the data were processed

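RNA from tissue dissected as the ARC of 10 dams, 5 per diet, was sequenced by the authors after poly-A selection. Per the submitters' processing notes and the methods, reads were trimmed with Trim Galore 0.5.0, aligned with STAR 2.6.0c to Rnor_6.0 and assigned to Ensembl gene models by HTSeq 0.6.1p2. The comparison of diets by the authors was made in DESeq2 1.26.0s. The only column used is the average log2 CPM of each gene over all libraries, which the authors deposited on a log2 scale. The tool that made it is not given in the sources used here. The methods state a minimum read count per gene for the DESeq2 comparison by the authors, but not whether it set the rows of this table. Raised to the power of 2, the average log2 CPM sums to 1002152 over the 12828 rows. Whether the average was taken before or after the log2 is not stated in the sources used here. Values given as CPM on the linear scale therefore need not be mean CPM.

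The authors' deposited fold change, F statistic, p-value and FDR (4 columns) hold a comparison of their own and were not used. The methods mention no F statistic, and whether these columns come from the DESeq2 comparison is not stated in the sources used here. The headers of 10 other columns, 1 per sample, fit no label. These columns, which the name of the deposited table calls FPKM, a level per length, entered no step. The planned tests between diets were therefore not run, and no depth, error or interval is given.

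Percentiles are the percentage of rows with a lower value. Genes were matched by symbol or synonym to RefSeq genes and promoters of GRCr8. Motifs were searched on both strands in the 250 bases before each start. The scan was checked only on simulated runs of the same letter, each with a planted motif. Stretches were printed with 15 bases on either side where the window allowed. Python 3.11.15 with numpy 2.4.6, pandas 2.3.3 and matplotlib 3.10.9 was used. The 9 genes, the lists and the motifs were chosen with earlier results of these data known. All 9 genes are named, with the 3 clock genes of highest average; other genes named were chosen after their values were seen.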

Additional observations from a re-analysis of the deposited data

How the results depend on the processing

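Placed among protein-coding genes in place of all genes, the median percentile of the 9 genes moved from 32.9 to 31.2. Among genes at or above the 10th percentile of the table it was 39.4, over 8 genes, since *Rora* was below that limit and dropped out. Each of these 8 genes necessarily had a lower percentile there than among all genes, since only the lowest rows were removed. *Ciart* was at 0.87 against 10.8 and *Nfil3* at 5.40 against 14.9. The share of promoter windows with an E-box moved from 5.59% to 8.12% over windows of genes with a row. Over the whole 300-base window it moved to 6.42%. These 2 alternatives were chosen after seeing the data. The count among the 8 windows at hand for the 9 genes was 4 with either length. Levels per coding length and identities between the proteins were planned but not run, since coding lengths and protein sequences were not used here. Other settings for the difference between diets (pseudocount or scaling, low-value filter, centring, leaving out each dam) were not run either, as no column could be assigned to a dam. No paired analysis was possible because the per-dam columns carry no label that ties them to a replicate number of either diet. Such labels would not by themselves give pairs, since the methods allocate dams to diets at random and describe no pairing between diets. As the columns of single samples were not used, neither the precision of the averages nor the influence of any 1 library on them was assessed.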
